A study of Strongylocentrotus purpuratus and Patiria miniata with 14 samples.

Results

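Open chromatin of the mesenchyme blastula and of the pluteus larva of the purple sea urchin *Strongylocentrotus purpuratus* was compared through the peak lists of 4 ATAC-seq libraries, 2 replicates at 24 hours post-fertilisation (hpf) and 2 at 72 hpf. These 4 are among the 14 libraries of a study of the sea urchin and a sea star. All were made from whole wild-type embryos, with no treatment or allele that separates the stages. Peaks of the 4 lists were joined into 1 region wherever they overlapped by at least 1 bp on the genome Spur_5.0, which gave 65251 merged regions. A region was gained when both pluteus replicates and neither mesenchyme blastula replicate had a peak in it, lost when the reverse held, and shared when all 4 libraries had one. By this rule 1506 regions were gained (2.31% of the merged regions), 3404 were lost (5.22%) and 9861 were shared (15.1%). The 4 lists of the early blastula (11 hpf) and the prism larva (66 hpf), 2 replicates each, played no part in the rule and were used to read the state of these regions at other times.

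ATAC-seq relies on a transposase that cuts DNA where nucleosomes or other proteins do not cover it, so a peak marks a stretch of accessible chromatin such as an active promoter or enhancer. The mesenchyme blastula is a hollow ciliated ball in which the first skeletogenic cells leave the epithelium and the territories of endoderm, mesoderm and ectoderm have been specified. The pluteus is a feeding larva with a differentiated gut, skeletal rods, a ciliary band, pigment cells and neurons, and the prism larva is the shape that comes just before it. In whole embryos a peak can appear or vanish because a cell type becomes more or less common or because chromatin changes within a cell type, and these cannot be told apart here.

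The lists differed in length. Mesenchyme blastula replicates 1 and 2 held 39511 and 31112 peaks, pluteus replicates 1 and 2 held 38010 and 19469, prism replicates 35186 and 56853, and early blastula replicates 34923 and 25462. Replicate 2 of the pluteus, the shortest, had 76.8% of its peaks overlapped by replicate 1, whereas 36.6% of the peaks of replicate 1 were overlapped by replicate 2. The corresponding shares at mesenchyme blastula were 49.2% for replicate 1 and 65.4% for replicate 2. Whether the replicates of a stage are separate cultures is not stated, and their spread may therefore be technical. The lists hold no read counts, so the depth behind a missing peak is unknown, and a region without a peak is one that did not pass the authors' threshold rather than one measured as closed. Intervals given for shares are exact binomial 95% intervals and cover counting error only.

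Regions lost between the stages outnumbered gained ones by 2.26 to 1, and both were outnumbered by shared regions. Gained regions covered 397.3 kb, lost regions 826.3 kb and shared regions 4543 kb. Seen from each stage, 11.3% of the 13307 regions called in both pluteus replicates were gained (interval 10.8 to 11.9%), and 18.8% of the 18108 regions called in both mesenchyme blastula replicates were lost (18.2 to 19.4%). Most merged regions belonged to none of the 3 classes, since 37688 of them (57.8%) were called in a single library. A further 4470 were missed only by pluteus replicate 2. In contrast, 1405 were missed only by mesenchyme blastula replicate 2, 535 only by mesenchyme blastula replicate 1 and 373 only by pluteus replicate 1.

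The ratio of lost to gained regions changed with the lists used. With the 19469 strongest peaks of every library, 1707 regions were gained and 2097 lost, a ratio of 1.23. Without pluteus replicate 2 the order turned, with 14726 regions gained against 3794 lost, and without pluteus replicate 1 there were 5082 gained and 8042 lost. Leaving out mesenchyme blastula replicate 1 gave 2947 gained and 11871 lost, and leaving out replicate 2 gave 2053 and 17243. Which stage has more regions of its own is therefore not settled by these lists.

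Several of the strongest gained regions had a peak in the early blastula as well. Regions are numbered here within their class by the −log10 p of the weaker of the 2 replicates that define them, and strength is given as fold enrichment, the ratio of signal to local background that the authors' peak caller wrote for the strongest peak of a library in the region. It ranks a peak within its own list and is no calibrated level between libraries. Region gained 1 spans 540 bp on NW_022145603.1 from 1112213 to 1112752. Its fold enrichment was 16.4 and 17.5 in the pluteus replicates and 18.2 and 17.8 in the early blastula replicates, with 4.26 in prism replicate 1 and no peak in prism replicate 2 or in the mesenchyme blastula. It was thus high at the first and last stage, and the nearest shared region lay 1340 kb away. Region gained 2, on NW_022145597.1 from 21553441 to 21553780, had fold enrichments of 14.5 and 12.7 in the pluteus replicates and no peak in any of the other 6 libraries. It was a pluteus region without any peak at prism larva. Region gained 3, on NW_022145594.1 from 12278625 to 12278933, reached 11.6 and 11.5 in the pluteus and was already listed in both prism replicates, at 5.68 and 8.82, with 4.85 in early blastula replicate 1.

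Region gained 5, on NW_022145610.1 from 11962198 to 11962595, and region gained 10, on NW_022145607.1 from 1576308 to 1576685, had no early blastula peak. Fold enrichment in gained 5 was 9.00 and 7.06 in the prism replicates and 11.2 and 10.4 in the pluteus replicates. In gained 10 it was 8.52 and 12.7 in the prism replicates, then 9.65 and 11.4 in the pluteus replicates. Both had a peak in all 4 larval libraries and in none of the 4 blastula libraries. Regions gained 4 and gained 9 lie 19 bp apart on NW_022145604.1, from 19626114 to 19626239 and from 19625979 to 19626094, and a single early blastula peak covers both, with fold enrichments of 17 and 19 in its replicates. Gained 4 had 11.6 and 11.2 in the pluteus and 6.1 in prism replicate 2, and gained 9 had 9.65 and 11.2 and 5.26. The pair is thus a single peak at 11 hpf and separate peaks at 72 hpf. The class held 15 such pairs of regions within 50 bp of each other. Gained 6 to gained 8, on 3 other sites of NW_022145567.1, NW_022145597.1 and NW_022145607.1, also had early blastula peaks, with pluteus fold enrichments from 5.36 to 12.8. Of the 10 strongest gained regions, 3 had a peak in both prism replicates, 5 in 1 of them and 2 in neither, and 7 had a peak in at least 1 early blastula replicate. They differ from their class, in which 51.1% had peaks in both prism replicates and 76.8% had no early blastula peak. Over all merged regions these shares were 36.8 and 75.3%.

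Most of the strongest lost regions still had peaks at prism larva. Region lost 1, on NW_022145606.1 from 44705486 to 44705803, had fold enrichments of 15.5 and 16.1 in the mesenchyme blastula replicates, 16.6 and 12.8 in the prism replicates and no peak in the early blastula or the pluteus. Region lost 5, on NW_022145606.1 from 38721154 to 38721510, had 13.6 and 13.8 at mesenchyme blastula and 9.47 and 18.5 at prism larva. Both regions had a peak in all mesenchyme blastula and prism libraries and in no other. Region lost 3, on NW_022145607.1 from 21714934 to 21715215, had no peak after 24 hpf. It showed 10.5 and 9.65 in the early blastula, 17.4 and 13.9 at mesenchyme blastula and no peak in any of the 4 larval libraries. Regions lost 6, on NW_022145596.1 from 31566 to 31830, and lost 8, on NW_022145544.1 from 767202 to 767532, were likewise listed in both early blastula replicates, at 11.7 and 11.7 and at 15.6 and 12.2. At mesenchyme blastula they had 12.5 and 12.4 and 11.2 and 14.8, and at prism larva a peak in replicate 2 only, at 9.71 and 3.49. Lost 2, lost 4, lost 7, lost 9 and lost 10 all kept peaks in both prism replicates, with fold enrichments there from 4.45 to 11.2. Among the 10 strongest lost regions, 7 had a peak in both prism replicates, 2 in 1 of them and 1 in neither, and 6 had a peak in at least 1 early blastula replicate. Over the whole lost class the share with both prism peaks was 28.4%, below the 51.1% of gained and 36.8% of all merged regions. The strongest 10 of each class thus run against the order of the classes.

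**Figure D1:**
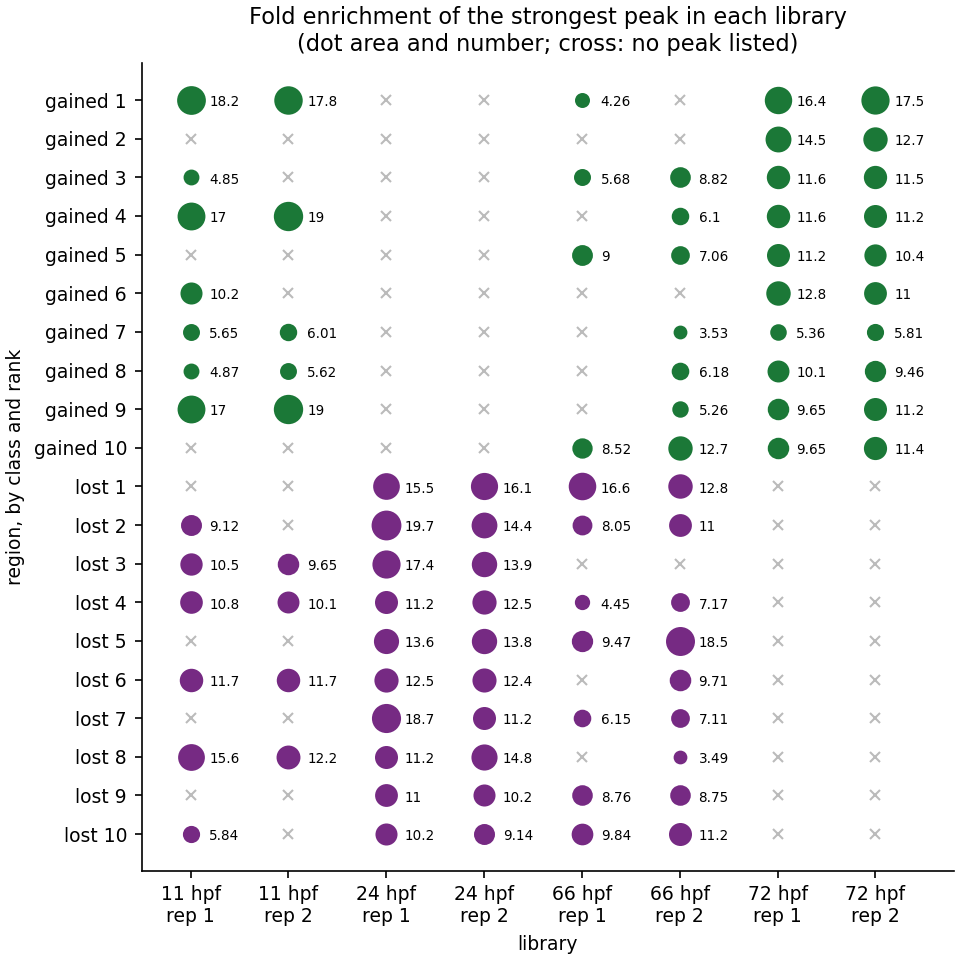
Fold enrichment of the strongest peak in each of the 8 sea urchin libraries (columns, in order of time) for the 10 gained (green) and the 10 lost (purple) regions with the highest −log10 p in their weaker defining replicate. Dot area and the printed number give the fold enrichment, and a cross marks a library with no listed peak. Of these regions, 7 lost and 3 gained ones have peaks in both prism replicates. The whole classes run the other way, with 28.4% of lost, 51.1% of gained and 36.8% of all merged regions.

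Over the whole classes, few gained and lost peaks were among the strongest of their lists. In pluteus replicate 1 the median fold enrichment was 5.22 in gained regions and 7.92 in shared regions, and in replicate 2 it was 4.71 and 6.13. In the mesenchyme blastula it was 5.47 in lost regions against 8.37 in shared regions for replicate 1, and 5.02 against 7.25 for replicate 2. Stage-dependent peaks thus had a lower median than shared ones in all 4 defining libraries. Over all merged regions the medians were 5.12 and 5.24 in the pluteus replicates and 5.41 and 5.17 in the mesenchyme blastula replicates. Both classes were slightly above these in replicate 1 and below them in replicate 2 of their stage. Of the gained regions, 30 (1.99%) ranked in the strongest 10% of the list of pluteus replicate 1 and 19 (1.26%) in that of replicate 2. The strongest 10% of the mesenchyme blastula lists held 59 lost regions (1.73%) in replicate 1 and 32 (0.94%) in replicate 2. In these 4 lists 19.1 to 36.4% of the shared regions reached it, and 10.5 to 11% of all merged regions with a peak in the list. These values come from the libraries that the rule used and are descriptions. Summits of the 2 defining replicates lay a median of 42 bp apart in gained regions and 36 bp apart in lost regions, close to the 36 and 40 bp of shared regions at 24 and 72 hpf.

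By the prism stage most gained regions had a peak in at least 1 replicate, and so did most lost regions. A peak was present in 54.3% of gained regions in prism replicate 1 (interval 51.8 to 56.9%) and in 76.5% in replicate 2 (74.3 to 78.6%). Lost regions had one in 33.9% (32.3 to 35.5%) and 60.4% (58.8 to 62.1%). For comparison, the shares over all merged regions were 40.2 and 57.3%, and over shared regions 96.6 and 99.4%. Gained regions were thus above all merged regions in both prism libraries, and lost regions were below them in replicate 1 and slightly above them in replicate 2, whose list is the longest of all.

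Counted over both prism replicates, 769 gained regions (51.1%) had a peak in each, 432 (28.7%) in 1 of them and 305 (20.3%, interval 18.2 to 22.4%) in neither. Of the lost regions, 968 (28.4%) still had a peak in both, 1276 (37.5%) in 1 and 1160 (34.1%, 32.5 to 35.7%) in neither. Over all merged regions, 36.8% had a peak in both, 24% in 1 and 39.3% in neither, so lost regions were below all merged regions in both respects. Among regions on which the prism replicates agreed, 71.6% of 1074 gained regions had a peak (68.8 to 74.3%), against 48.4% of 49615 merged regions (47.9 to 48.8%). Of 2128 agreed lost regions 54.5% had none, near the 51.6% of merged regions. Of the shared regions, 30 of 9861 (0.304%) had a peak in neither prism replicate.

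**Figure D2:**
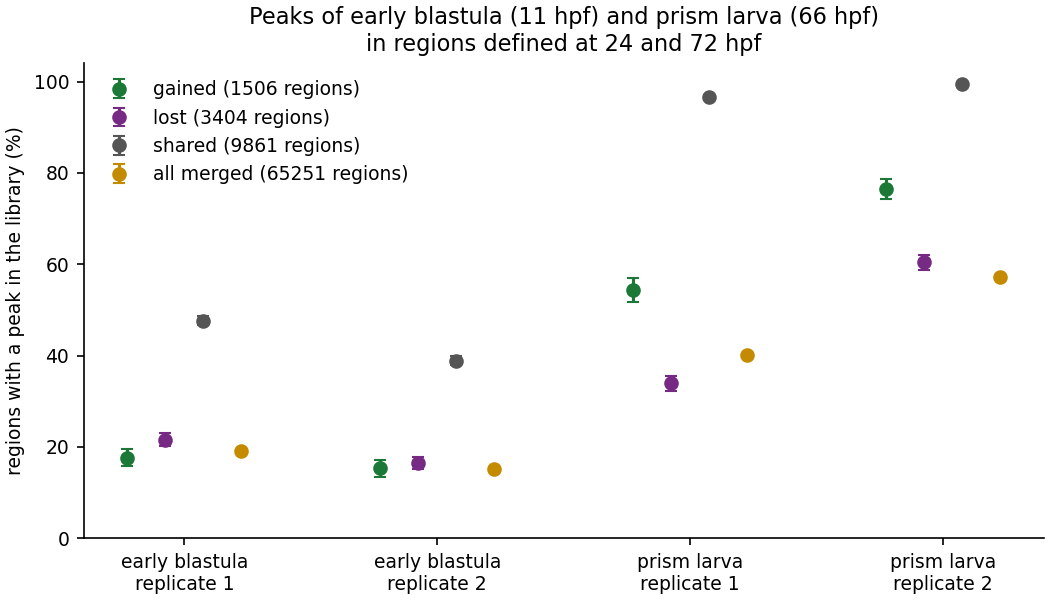
Share of gained, lost, shared and all merged regions (percent, vertical axis) that had a peak in each early blastula and each prism library (horizontal axis), with exact binomial 95% intervals, which are narrower than the points where not visible. Gained regions lie above lost regions in both prism libraries and slightly below them in both early blastula libraries.

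The early blastula gave the other reference point. Its replicates had a peak in 17.6 and 15.3% of gained regions and in 21.6 and 16.4% of lost regions, against 19.2 and 15.2% of all merged regions. The gained share exceeded the lost share by 20.4 and 16.1 percentage points in the prism replicates, and the same difference was -4 and -1.12 points in the early blastula replicates. The mean of this difference was 18.2 points at prism larva and -2.56 points at early blastula, 20.8 points apart, and every prism library lay above every early blastula library. With 2 libraries a stage, an exact two-sided permutation test over libraries gave p = 0.333, the smallest p that this design allows.

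The comparison at prism larva depended on the length of the lists and on which pluteus library entered. With the 19469 strongest peaks of every library, the prism replicates had a peak in 58.1 and 66.3% of the 1707 gained regions and in 32.1 and 31.8% of the 2097 lost regions, with 47.2 and 50.1% over all merged regions. At equal list length, gained regions lay above and lost regions below all merged regions in both prism libraries, and 56.2% of lost regions had a peak in neither. The gained share with a peak in both prism replicates exceeded the lost share by 22.6 points with the full lists and by 31.4 points with equal lists. Leaving out pluteus replicate 1 turned the difference to -32.4 points, and leaving out replicate 2 turned it to -5.51 points, in each case with regions that rest on 1 pluteus library alone. Without mesenchyme blastula replicate 1 or 2 it was 53.7 and 38.9 points, with lost regions that rest on 1 mesenchyme blastula library alone. The order of the classes at prism larva thus held only where gained regions needed a peak in both pluteus replicates.

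The single-library regions show what such calls look like at prism larva. Of the 3237 regions called only in pluteus replicate 2, 5.56% had a peak in both prism replicates and 77.6% in neither. For the 13100 called only in pluteus replicate 1 the values were 22.8 and 42.9%, and for those called only in mesenchyme blastula replicates 1 and 2 the shares in both prism replicates were 10.7 and 4.75%. Regions called in both pluteus replicates and 1 mesenchyme blastula replicate stood between the gained class (51.1%) and the shared class (96.3%). They were at 82.7% with replicate 1, nearer to the shared class, and at 60.0% with replicate 2, nearer to the gained class. Regions called in both mesenchyme blastula replicates and in 1 pluteus replicate had peaks in both prism replicates in 73.8% of cases with pluteus replicate 1 and 57.4% with replicate 2. Every pattern with 3 libraries thus had a higher share than the gained and lost classes.

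Where a prism peak was present, it was stronger and wider in gained than in lost regions. In prism replicate 1 the median fold enrichment was 5.17 over 818 gained regions and 4.85 over 1155 lost regions, and in replicate 2 it was 6.18 over 1152 and 5.29 over 2057. Median peak widths were 242 and 191 bp in replicate 1 and 291 and 240 bp in replicate 2. The order was the same in both prism libraries for both measures, and shared regions were above both classes, with fold enrichments of 8 and 9.58 and widths of 336 and 406 bp. Over all merged regions with a prism peak the medians were 5.68 and 6.18 for fold enrichment and 258 and 288 bp for width. Gained regions were below these in replicate 1 and about level with them in replicate 2, and lost regions were below them in both. Among early blastula peaks the classes were close, with medians of 4.70 and 5.04 in gained regions and 4.64 and 4.81 in lost regions. Prism summits lay a median of 35 to 47.5 bp from the pluteus summits in gained regions and 41 to 50 bp from the mesenchyme blastula summits in lost regions, about as far as summits of replicates lie from each other.

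Stronger lost regions were more often still listed at prism larva. Divided into 3 equal groups by the −log10 p of the weaker replicate, the strongest group of lost regions had peaks in both prism replicates in 39.3% of cases (interval 36.5 to 42.2%), the middle group in 27.7% (25.1 to 30.4%) and the weakest group in 18.3% (16.1 to 20.7%). The share with a peak in neither rose in step, from 22.6 to 33.3 and 46.3%. Gained regions differed less between the groups, with 55.6, 54.6 and 43.0% in both prism replicates and 19.1, 15.7 and 25.9% in neither. In each group the gained share with both peaks was above the lost share. An early blastula peak in at least 1 replicate was found in 27.3, 20.3 and 22.1% of the gained groups, from strongest to weakest, and in 31.0, 25.6 and 25.6% of the lost groups.

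The full course over the stages can be read for each region, but courses were not counted over all merged regions. Neither early blastula list held 76.8% of gained and 72.6% of lost regions, near the 75.3% of all merged regions. Both early blastula lists held 9.63, 10.6 and 9.74% of them. The early blastula part of a course is thus close to the general rate. The commonest course of a gained region was absence from both early blastula and both mesenchyme blastula lists and presence in both prism and both pluteus lists, which held for 640 regions (42.5%). A further 184 (12.2%) were listed at pluteus alone. By contrast, 61 (4.05%) were present in both early blastula lists, absent from the mesenchyme blastula and prism lists and present again in both pluteus lists, and 40 (2.66%) were missing from the mesenchyme blastula lists only. Among lost regions, 816 (24.0%) were listed at mesenchyme blastula alone and 742 (21.8%) in both mesenchyme blastula and both prism lists but neither early blastula list. Another 137 (4.02%) were present in both early and both mesenchyme blastula lists and in no larval list, and 97 (2.85%) were absent from the pluteus lists only.

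Reading the rule with the prism larva in place of the pluteus gave a different balance. Merging the mesenchyme blastula and prism lists gave 79276 regions, of which 6350 were gained and 1441 lost by 66 hpf. Of those gained by 66 hpf, 53.6% had a peak in pluteus replicate 1, 14.3% in replicate 2 and 11.9% in both. Of those lost by 66 hpf, 80.5% (interval 78.4 to 82.5%) had a peak in neither pluteus replicate and 2.15% had one in both. Over all 79276 regions, 37.6% had a peak in pluteus replicate 1, 18.6% in replicate 2, 16.5% in both and 60.3% in neither. Regions gained by 66 hpf thus lay above all regions in pluteus replicate 1 and below them in replicate 2, and regions lost by 66 hpf lay below them in both.

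Gained and lost regions had similar median widths, and both were narrower than shared regions. Widths under 150 bp were more frequent among lost regions (19.8%) than among gained ones (13.1%). The median width was 257 bp for gained regions, with quartiles of 207 and 313 bp, and 247 bp for lost regions, with quartiles of 178 and 291 bp. Shared regions had a median of 420 bp and quartiles of 337 and 566 bp, and all merged regions had a median of 193 bp. A shared region is the union of at least 4 peaks and a gained or lost one of at least 2, which by itself widens the shared class. Single peaks showed the same order, with a median of 238 bp in gained against 345 bp in shared regions in pluteus replicate 1 and 129 against 263 bp in replicate 2. In the mesenchyme blastula they were 205 against 332 bp in replicate 1 and 135 against 297 bp in replicate 2 for lost and shared regions. Widths above 500 bp were reached by 29 gained regions (1.93%), 36 lost regions (1.06%) and 3464 shared regions (35.1%), and the widest gained and lost regions measured 765 and 726 bp. The medians of gained and lost regions differed by less than the replicates that define them, whose median peak widths within the class had SDs of 77.1 bp at pluteus and 49.5 bp at mesenchyme blastula (n = 2 each).

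Distances to shared regions were close to those of all merged regions for both classes. The nearest shared region was a median of 22.9 kb from a gained region and 23.3 kb from a lost region, and the value over all merged regions was 22.3 kb. Within 10 kb of a shared region lay 30.4% of gained regions (interval 28.1 to 32.8%), 29.3% of lost regions (27.8 to 30.9%) and 30% of all merged regions. Shared regions themselves were closer together, with a median of 15.7 kb and 38.6% within 10 kb of another (37.6 to 39.5%). Local crowding was alike, with a median of 10 other merged regions within 50 kb of a gained or lost region and 11 for a shared one. Gained regions within 10 kb of a shared region had peaks in both prism replicates in 60.9% of 458 cases (56.3 to 65.4%), against 46.8% of 1048 farther away (43.7 to 49.8%). For lost regions the shares were 28.3 and 28.5%, without such a difference.

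**Figure D3:**
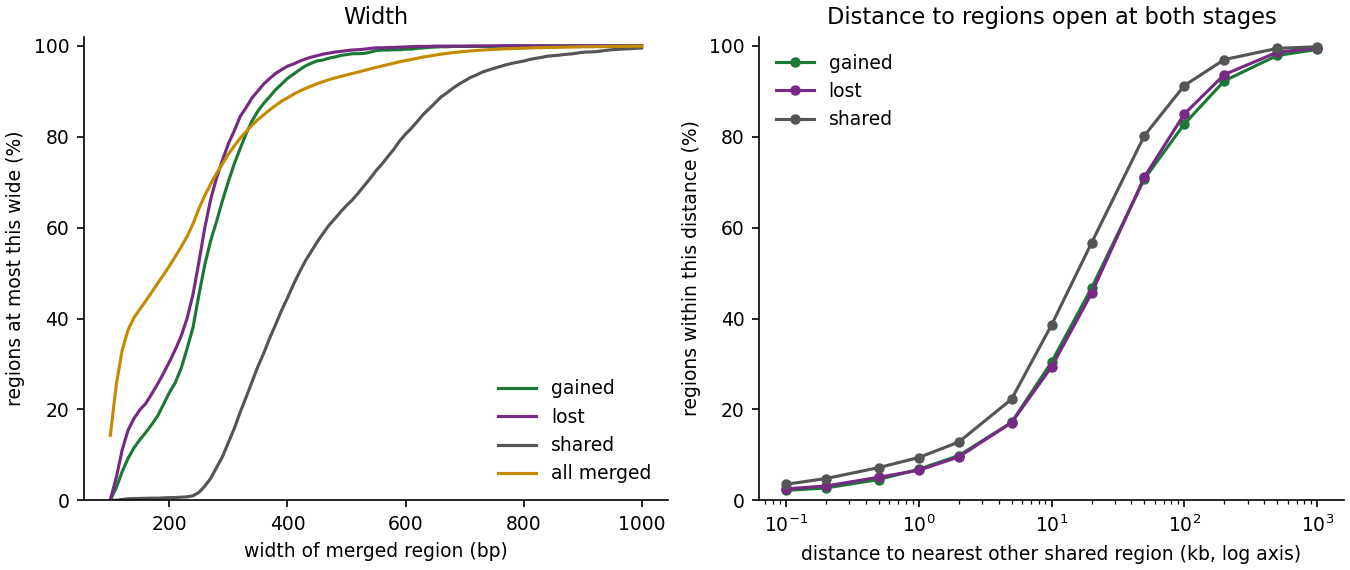
Left, cumulative share of regions (percent) by width of the merged region in bp, for gained, lost, shared and all merged regions. Right, cumulative share of gained, lost and shared regions (percent) by distance to the nearest other shared region in kb on a log axis. The gained and lost curves run together in the distance panel, and in the width panel they separate somewhat, with 57.2% of gained and 66.3% of lost regions at most 270 bp wide. Shared regions are wider (median 420 bp) and closer to one another (median 15.7 kb).

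Counted with close pairs included, gained and lost regions had same-class neighbours more often than all merged regions had neighbours of that class. Another gained region lay within 10 kb of 10.6% of gained regions (interval 9.11 to 12.3%), whereas a gained region lay within 10 kb of 4.52% of lost regions, 5.62% of shared regions and 5.81% of all merged regions. Another lost region lay within 10 kb of 15.8% of lost regions (14.6 to 17.1%), against 9.96% of gained regions, 11.7% of shared regions and 11.6% of all merged regions. The nearest merged region was itself gained for 5.78% of gained regions, against 2.40% over all merged regions, and itself lost for 9.81% of lost regions, against 5.15%. Of these neighbours, 15 gained and 84 lost pairs were no more than 50 bp apart. Both members of such a pair can enter the 87 gained and 334 lost regions whose nearest region is of their own class. The pairs thus weigh most on the lost class, and whether an excess remains without them was not tested. Neighbouring regions are not independent, so these intervals are too narrow.

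Same-class stretches, in which each member lies within 50 kb of the next, held 432 gained regions (28.7%) in 194 stretches and 1438 lost regions (42.2%) in 598 stretches. The lost class has more regions, and close pairs add members, so the 2 shares cannot be compared as a degree of grouping. No such share was computed for shared or all merged regions. The longest gained stretches by number of members had 5, 5 and 4. The first covers 53.9 kb of NW_022145607.1 from 8157610 to 8211468, also holds 4 shared and no lost regions, and has prism peaks in both replicates at 4 of its 5 members. The second covers 59.7 kb of NW_022145598.1 from 15397441 to 15457181. The study's element annotation assigns 4 of its 5 members to neighbouring transfer RNA genes, TRNAY-GUA, TRNAV-AAC and TRNAV-UAC, which encode adaptors for tyrosine and valine. Its strongest member, gained 174 from 15432576 to 15432837, had fold enrichments of 5.60 and 5.96 in the pluteus, 5.73 and 6.59 in the prism replicates and 4.18 in early blastula replicate 1. The third gained stretch packs 4 regions into 1.57 kb of NW_022145605.1 from 40945929 to 40947494, and 3 of them had peaks in both prism replicates. All 4 also had a peak in early blastula replicate 1, so this site was listed at 11 hpf, unlisted at 24 hpf and listed again later. Gained 149 and gained 608, 11 bp apart here, lie under the same early blastula and prism peaks.

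The largest lost stretches held more members than the gained ones, in a class of 3404 regions against 1506. The first holds 8 lost regions in 92.5 kb of NW_022145612.1, from 38431362 to 38523813, with 3 shared regions among them and no gained one. Of its members, 2 had peaks in both prism replicates and 2 in neither. Next came 7 lost regions in 111 kb of NW_022145604.1 from 9694598 to 9805582, none of which had peaks in both prism replicates and 4 of which had none. The third has 7 lost regions in 114 kb of NW_022145601.1 from 12488830 to 12603108, interspersed with 10 shared regions. Its member lost 363, from 12557007 to 12557537, is also its widest, with fold enrichments of 5.25 and 4.59 in the early blastula, 3.43 and 3.87 in the mesenchyme blastula and no larval peak. These stretches were picked for their number of members, so the counts are descriptions.

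Lost regions were the more numerous class on all 21 of the scaffolds with most peaks. The same 4 lists define the classes on every scaffold, so this is no separate evidence for the total ratio of 2.26. That ratio was 1.23 with equal lists and 0.258 without pluteus replicate 2. Between 46 and 91 gained and between 99 and 326 lost regions lay on each. Lost regions ran from 2.28 per Mb on NW_022145607.1 to 6.10 per Mb on NW_022145614.1, and gained regions from 1.24 per Mb on NW_022145606.1 to 2.29 per Mb on NW_022145613.1. These densities do not allow for the number of merged regions, which was 2005 on NW_022145602.1 and 5419 on NW_022145612.1. The ratio of lost to gained regions was 1.27 on NW_022145607.1 and 4.36 on NW_022145614.1, with a median of 2.04. As a share of the merged regions of a scaffold, gained regions ranged from 1.48 to 3.32% and lost regions from 3.50 to 6.71%. On 19 of the 21 scaffolds the gained share with peaks in both prism replicates was above the lost share, with ranges of 27.7 to 70.0% and 22.4 to 37.5%. Outside these scaffolds lay 5.78% of gained, 6.05% of lost, 3.35% of shared and 4.71% of all merged regions. The mitochondrial genome held 1 gained, 6 shared and no lost regions. The gained one, near ND4, a gene for a subunit of respiratory complex I, had fold enrichments of 2.00 and 2.04 at pluteus and 1.82 in prism replicate 2.

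**Figure D4:**
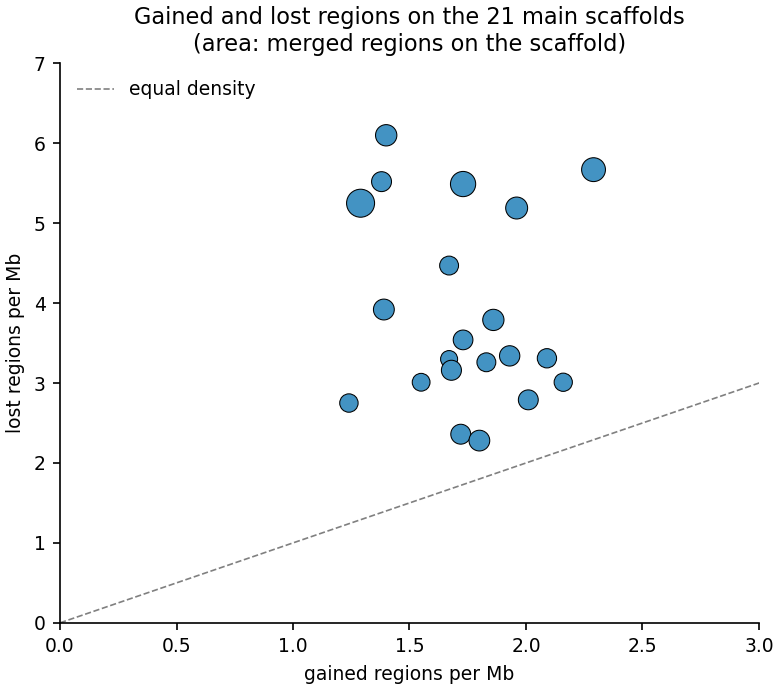
Gained regions per Mb (horizontal axis) and lost regions per Mb (vertical axis) on each of the 21 scaffolds with most peaks, where the last peak on a scaffold sets its length, and point area proportional to the number of merged regions. All points lie above the dashed line of equal density, and lost density spans 2.28 to 6.10 per Mb against 1.24 to 2.29 per Mb for gained regions.

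Location relative to genes could be read for part of the genome, mainly one stretch each of NW_022145597.1 and NW_022145598.1, where the study's annotation of reproducible elements could be used. In that annotation a promoter element overlaps a transcription start site, a proximal one lies a short way upstream of a start site and a distal one lies elsewhere in noncoding sequence. Among gained regions that overlapped such an element, 14 of 67 (20.9%, interval 11.9 to 32.6%) were at promoters, 18 were proximal and 35 (52.2%) were distal. Of the lost regions, 28 of 105 (26.7%, 18.5 to 36.2%) were at promoters, 19 were proximal and 58 (55.2%) were distal. Shared regions were at promoters in 215 of 371 cases (58%, 52.7 to 63%), and all merged regions in 31.9% of 1653. The gained and lost promoter shares had overlapping intervals, and both lay below the interval of the shared class. Both intervals include the 31.9% of all merged regions. Where the assigned gene had a placed RefSeq span, 47.6% of 63 gained, 46.6% of 103 lost and 70.5% of 366 shared regions overlapped it, against 50.7% of 1631 merged regions (48.2 to 53.2%). The gained (34.9 to 60.6%) and lost (36.7 to 56.7%) intervals include that share. Whether these are exons or introns was not analysed here.

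**Figure D5:**
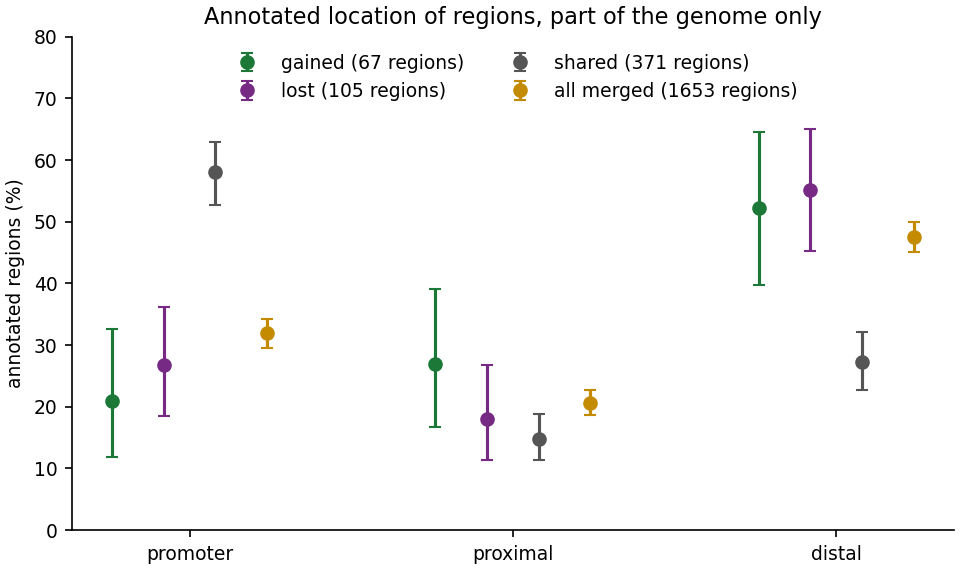
Share of regions (percent, with exact binomial 95% intervals) at promoters, proximal and distal elements, among the gained, lost, shared and all merged regions that overlap an annotated element in the part of the genome examined. Shared regions were at promoters in 58% of cases, gained in 20.9%, lost in 26.7% and all merged in 31.9%. The gained and lost intervals include the share of all merged regions.

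The annotation assigns a few of these regions to genes with a known family. A distal region so assigned may lie outside the gene span. Gene spans are those of RefSeq for Spur_5.0 on the scaffold that the annotation gives, and families are those of the human genes in the same orthogroup. By rank, the first such gained regions are gained 174 and gained 351, both assigned to valine transfer RNA genes as distal elements. Gained 368 comes next, inside LOC585197, grouped with the sialyltransferases ST6GALNAC3 to ST6GALNAC6, with 7.19 and 5.5 at pluteus and 8.12 in prism replicate 2. The promoter of LOC581193, in an orthogroup with the human cytochrome P450 genes CYP2J2 and CYP2U1, overlapped gained 594 on NW_022145598.1 from 6329696 to 6330082, at the end of the gene (6326253 to 6329805). Fold enrichment was 7.19 and 4.63 at pluteus, 5.80 and 7.86 at prism larva, and no blastula list had a peak. The same course held for gained 514, from 1240150 to 1240581 inside LOC588898 (1238419 to 1270011), whose orthogroup holds sodium-coupled transporters of the SLC5 family, with 7.24 and 4.67 at pluteus and 8.33 and 8.42 at prism larva. It also held for gained 500 on NW_022145597.1, from 30386492 to 30386866 inside LOC579450, an orthologue group of beta subunits of the sodium pump such as ATP1B1, and for gained 721 inside LOC591752, grouped with the spermidine acetyltransferase SAT1. Gained 500 had 5.65 and 4.37 at pluteus and 6.86 and 7.58 at prism larva, and gained 721 had 9.17 and 4.97 and 9 and 11. These 4 regions had a peak in all 4 larval libraries and in no blastula library. Gained 781, inside LOC105447552, grouped with receptor tyrosine phosphatases such as PTPRD, had 4.83 and 5.26 at pluteus with 4.96 in prism replicate 1 and 4.62 in early blastula replicate 2.

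The gene *sfk3*, a Src-family kinase, had a region of each class. Gained 1156, from 25401637 to 25401940 on NW_022145598.1, is at its promoter, with fold enrichments of 6.44 and 4.18 at pluteus and 3.95 and 5.04 at prism larva. Lost 1111, from 25359220 to 25359464, lies within the gene at its other end (25358396 to 25401632), with 5.47 and 5.47 at mesenchyme blastula and 4.93 and 4.04 at prism larva. Both regions were listed in both prism replicates. The gained region of *sfk3*, those of ND4 and LOC579918 and the lost region of LOC579918 were chosen after their values were seen. LOC581339, grouped with the steroid hydroxylases CYP17A1 and CYP21A2, had 3 lost regions, namely lost 944, lost 1371 and lost 1723. The last, from 20549972 to 20550207 and proximal to the gene, had 7.60 and 6.29 in the early blastula, 4.02 and 5.21 in the mesenchyme blastula and no larval peak. The others are distal and outside the gene span. They had 6.45 and 5.53 and 3.82 and 5.32 in the mesenchyme blastula and peaks in both prism replicates. A distal lost region (11073201 to 11073333) was also assigned to Mir124, a microRNA of neurons that lies apart from it (11029937 to 11030037). The region had fold enrichments of 5.42 and 4.95 at mesenchyme blastula and 4.96 and 5.73 at prism larva. Other lost regions, all distal, were lost 465, assigned to LOC594417 (SLC5 transporters, 7.22 and 6.7 at mesenchyme blastula), and lost 524, assigned to TRNAK-UUU, a lysine transfer RNA gene (6.42 and 6.4). Also distal were lost 1032, assigned to LOC590332 (the scavenger receptors CD36 and SCARB1), lost 1561, assigned to LOC586705 (ceruloplasmin and clotting factors), and lost 1599, assigned to LOC105447429. None of these 5 had a peak in both prism replicates. LOC579918, grouped with pancreatic lipases, had gained 1351 (4.67 and 4.05 at pluteus) and lost 2364 (4.28 and 4.98 at mesenchyme blastula).

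The cis-regulatory elements that earlier work tested near developmental genes seldom coincided with gained or lost regions. Within 50 kb of the elements of 24 genes lay 397 merged regions, of which 7 were gained (1.76%), 24 lost (6.05%) and 70 shared (17.6%), close to the 2.31, 5.22 and 15.1% over all merged regions. An element was overlapped by 1 gained and 2 lost regions. The gained one, gained 529 on NW_022145607.1 from 33414346 to 33414772, overlaps element 43 of *prdm1*, which encodes the transcriptional repressor Blimp1 of the endomesoderm. Its fold enrichment was 4.53 and 4.80 at pluteus and 4.64 and 6.14 at prism larva, and no blastula list had a peak there. Other regions inside the same element were called in some replicates only, including mesenchyme blastula replicate 1.

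All 7 gained regions near tested elements were near endoderm and gut genes, which had 173 of the 397 merged regions. The same genes had 11 of the 24 lost regions, 6.36% of their 173. Besides *prdm1*, those with a gained region were *foxa1*, a forkhead factor of the gut, *gata6*, a zinc-finger factor of endomesoderm, *wnt8a*, a Wnt ligand of early endomesoderm, and *Hbox7*, a posterior Hox gene of the hindgut. Gained 1268, 6.07 kb from module F of *foxa1* on NW_022145611.1 (31455454 to 31455651), had 5.78 and 3.67 at pluteus and was already listed at prism larva, at 7.68 and 7.67. Gained 650, on the other side at 2.64 kb from region K (31429192 to 31429425), had 3.27 and 4.50 at pluteus and 3 and 4.49 at prism larva. Lost 2298 lies 7.62 kb from module F (31457012 to 31457314), with 5.04 and 3.63 at mesenchyme blastula and 3.74 and 3.77 at prism larva. All 3 regions of the *foxa1* locus thus had peaks in both prism replicates. Near *gata6*, gained 1375 (3.23 and 4.09 at pluteus) and lost 1620 (5.51 and 4.38 at mesenchyme blastula) were both listed in prism replicate 2 only. Near *wnt8a*, gained 1390 (4.42 and 3.95 at pluteus) lay 9.26 kb from module A and had 3.67 in prism replicate 2.

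The *Hbox7* locus had 2 gained and 4 lost regions among 28. Gained 564, 14.6 kb from element E on NW_022145612.1 (38133448 to 38133689), had 5.13 and 4.69 at pluteus, 3.36 and 4.5 at prism larva and 4.35 in early blastula replicate 1. Lost 1727 lies 1.17 kb from it (38134860 to 38134982), with 4.32 and 4.91 at mesenchyme blastula, 4.5 in prism replicate 2 and 3.69 in early blastula replicate 2. Here a gained and a lost region are neighbours. Lost 576, 31.8 kb from element E, was the strongest of the lost regions at this locus, with 6.18 and 5.75 at mesenchyme blastula and no peak elsewhere. Gained 981, 0.191 kb from element D, had 5.02 and 4.48 at pluteus and 3.36 in prism replicate 1.

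Genes of the other lists had lost but no gained regions near their elements. Their lost shares ran from 3.57 to 9.52%, against 6.36% near endoderm and gut genes and 5.22% over all merged regions. Each of these lists had only 21 to 66 merged regions. With 2.31% gained over all merged regions, that is too few to read an absence of gained regions. Skeletogenic genes had 4 lost among 66 merged regions. The strongest was lost 243, 28.2 kb from the element of *sm50*, a spicule matrix protein gene, on NW_022145602.1 (7388488 to 7388807), with 5.2 and 5.38 in the early blastula, 7.07 and 6.45 at mesenchyme blastula and 6.25 and 6.5 at prism larva. It was listed in all 6 libraries before the pluteus. Lost 1300 near *sm30a*, another spicule matrix gene, had 5.23 and 5 at mesenchyme blastula, 4.56 in early blastula replicate 1 and no larval peak, and lost 2567 near *alx1*, the homeobox factor of skeletogenic cells, had 5.75 and 4.12 with 3.3 in early blastula replicate 1 and 4.64 in prism replicate 2. Neural and apical genes had 4 lost among 59. Lost 118 and lost 821, 44.8 and 44.4 kb from the distal element of *onecut2*, a homeobox factor of the ciliary band, had 12.3 and 8.21 and 7.56 and 5.98 at mesenchyme blastula. Both were listed in both prism replicates, and lost 118 (30527883 to 30528189 on NW_022145606.1) was the strongest of the 24 lost regions near a tested element.

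Ectoderm genes had 2 lost regions among 50, 1 each near *dll1.a*, the Notch ligand Delta, and LOC100888959 (Spec2a), a calcium-binding protein of the aboral ectoderm. Pigment cell and other mesoderm genes had 1 among 28. This is lost 2878, from 34770826 to 34770973 on NW_022145598.1 inside the tested region of *gcml*, the Gcm factor of pigment cells, with 4.50 and 3.64 at mesenchyme blastula and 4.07 in prism replicate 2. The third region that overlapped a tested element is lost 2970, from 1978512 to 1978692 on NW_022145558.1, in element 5 of LOC115927903, which encodes cyclin D, with 6.19 and 4.21 at mesenchyme blastula and no peak in the other 6 libraries. Element 5, element D of *Hbox7* and the element of *sm30a* are marked in the study's list as not mapping uniquely, so distances to them are uncertain, whereas the *prdm1* and *gcml* elements map uniquely. Over all lists, 7 of the 24 lost regions had peaks in both prism replicates, 7 in 1 and 10 in neither. The counts per list are small, and no difference between lists was tested.

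The study also lists elements conserved across phyla. Of 44 such sea urchin elements that could be used, 24 overlapped a shared region, 1 a gained region, 1 a lost region and 12 only regions called in some replicates, while 6 overlapped none. Over all merged regions 2.31% were gained, 5.22% lost and 15.1% shared. These elements were drawn from called peaks, so the counts are a description, and single gained and lost elements show no departure from those shares. The gained one, gained 516 on NW_022145601.1 from 7189116 to 7189563, is assigned to LOC753159 and had 4.19 and 4.17 at pluteus and 3.04 and 4.61 at prism larva. The lost one, lost 2399 on NW_022145598.1 from 17508256 to 17508508, lies between LOC105439794 and LOC100888879. It was listed in both early blastula replicates, at 4.30 and 3.39, and in both mesenchyme blastula replicates, at 3.79 and 4.13, and in no larval library.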

How the data were processed

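ATAC-seq peak lists of 8 sea urchin libraries were used, 2 replicates at each of 4 stages, and the 6 sea star lists were not used. According to the methods and the submitters' processing notes, reads were aligned with Bowtie2 to Spur_5.0, duplicates were removed with SAMtools, read ends were offset for the transposase, only nucleosome-free pairs entered, and MACS2 called peaks replicate by replicate. Each peak of the deposited lists carries a score, its fold enrichment over local background (a ratio), and −log10 values of its p and q, with no read counts, so no count model was fitted and depth is unknown.

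Regions were built as described with Python 3.11.15, numpy 2.4.6 and scipy 1.17.1, and plotted with matplotlib 3.10.9. The overlap code was tested on simulated data and checked against bedtools. The members, lists and rules were chosen with earlier results of these data known. Text names the 10 strongest regions of each class, the 3 stretches with most members, regions within 50 kb of a tested element, and up to 10 regions per class with an annotated gene, and the text says where a region outside this rule is named. Element annotations come from the study's supplementary tables, of which parts were used, and gene spans from RefSeq. Alternatives were a q of at most 0.001, equal list lengths, merging across 100 bp, an overlap of at least 50 bp, no peak of the other stage within 500 bp, the 21 main scaffolds, distances of 5 and 25 kb, and leaving out each library. The difference of the 2 prism shares, the shares of each library at equal list length, the rule with 66 hpf in place of 72 hpf and a permutation within replicate numbers were added after the data were seen. No source says that equal replicate numbers pair libraries.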

Additional observations from a re-analysis of the deposited data

Results flagged for a closer look

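The share of gained regions with a peak minus the share of lost regions with a peak was positive in both prism libraries and negative in both early blastula libraries, 20.8 percentage points apart on average. The exact two-sided permutation test over 2 libraries a stage gave p = 0.333, the smallest that it can give, so the difference between the stages did not pass a test. The lengths of the lists differed between these libraries, from 25462 to 56853 peaks, and their part in the difference was not tested beyond the equal-length lists, in which both early blastula and both prism libraries kept these directions (12.1 and 11.6% of gained against 18.9 and 18.6% of lost regions at early blastula).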

How the results depend on the processing

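Counts of gained, lost and shared regions stayed within 1.5 times their value under the stricter q, both other merging rules, the 500 bp margin and the main scaffolds alone. With equal list lengths, lost regions fell to 2097, 56.2% of them had no prism peak, and the gained minus lost difference in prism peaks was 31.4 points. The share within 10 kb of a shared region was 27.6% for gained and 25.2% for lost regions with the 500 bp margin, and 27.8% for lost regions when merging across 100 bp. At 5 kb both shares were 17.1%, and at 25 kb they were 52.5 and 51.4%. Leaving out each library in turn gave 2053 to 14726 gained, 3794 to 17243 lost and 10265 to 14347 shared regions. Their median widths were 111 to 272 bp for gained and 114 to 264 bp for lost regions, and the shares within 10 kb were 25.7 to 39.5% and 26.4 to 40.6%. The share of gained regions with peaks in both prism replicates (or the one kept) ranged from 22 to 76.5%, the share of lost regions with none from 16.9 to 66.1%, and their difference in prism peaks from -32.4 to 53.7 points. The difference reversed to -32.4 points without pluteus replicate 1 and to -5.51 points without replicate 2, where gained regions rest on 1 pluteus library. It rose to 53.7 and 38.9 points without mesenchyme blastula replicates 1 and 2, where lost regions rest on 1 mesenchyme blastula library. The cause was not tested. With a replicate block, exchanging stage labels only within a replicate number, the difference between prism and early blastula libraries stayed at 20.8 points (24.4 and 17.2 for numbers 1 and 2), with an exact permutation p of 0.5, the smallest that 2 pairs allow, and no source says that equal numbers mark a shared culture. The counts and shares come from no test between samples. Depth is unknown, so a missing peak may be a peak under the threshold.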
